A study of Saccharomyces cerevisiae with 10 samples.

Results

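The ATG genes of Saccharomyces cerevisiae encode the proteins that build, load and empty the autophagosome, and their transcript ratios between the yeast strains DJ28 and FY23 are described here. A gene was taken as a member when its symbol on the array annotation, its current symbol or one of its synonyms is ATG followed by a number, with the older APG, AUT and CVT names resolved through the gene table of assembly R64. Of the 39 genes with such a name in that table, 38 have a row among the 6277 rows of the deposited table, each of them a single row, and ATG44 has none. VPS30 (ATG6) and SNX4 (ATG24) are the 2 members that carry the ATG name as a synonym. By the roles assigned to them, 19 members belong to the core machinery, 13 to selective routes and 6 to the traffic of Atg9 or to breakdown inside the vacuole. The expression study hybridised DJ28 and FY23 together on 10 arrays with 2 dyes, with DJ28 in Cy3 and FY23 in Cy5 on arrays 1 to 5 and the dyes exchanged on arrays 6 to 10. The series title speaks of a mutant whose Ras/cAMP pathway is constitutively active, and its keywords name PDE2. The genotypes of DJ28 and FY23 beyond their names, the alleles both may share, the growth medium and the growth phase are not stated in the labels.

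Autophagy carries cytoplasm into the vacuole inside a double membrane. In yeast, nutrient-rich growth keeps it low through the TORC1 kinase complex and through protein kinase A, the kinase that cyclic AMP activates, and starvation lifts both brakes. Protein kinase A is known to act on Atg1 and Atg13 by phosphorylation, and transcription of several ATG genes, ATG8 above all, is known to rise on starvation. The same core proteins also serve the cytoplasm-to-vacuole targeting route, called Cvt, which delivers enzymes such as aminopeptidase I to the vacuole during growth, and receptors direct the machinery to mitochondria, peroxisomes, nucleus or endoplasmic reticulum.

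Every value below is a log2 ratio of DJ28 over FY23, centred on the median of its array and with its sign set to that direction, and a difference is the strain term fitted to those ratios with limma. A ratio compares strains within a gene and says nothing of how abundant a transcript is. The direction itself is likely but not settled, because no label or header read here states which dye is the numerator. With red as the numerator, PDE2 (YOR360C), the gene of the high-affinity cyclic AMP phosphodiesterase, is 3.89-fold lower in DJ28 (log2 difference -1.96, SE 0.17, limma adjusted p = 0.00153, the same sign on 8 of 8 replicates). With the opposite numerator all signs below would turn together, and no size or p-value would differ. Arrays 6 and 7 correlated at r = 0.988, against 0.694 at most for other pairs, and were averaged and counted as 1 replicate, which gives 9 replicates. No label says that arrays came from separate cultures, so the p-values cover only array-to-array spread, possibly all technical. Values are also given within arrays 4, 5, 9 and 10, which hold all 13 cells found at the scale's upper limit and tend to be empty in the same rows (correlation of empty cells at least 0.381 among them and at most 0.254 with another array). No label names these arrays as a batch. Array 1 had a value for 13 of the 38 members and array 2 for 25, while arrays 3 to 10 had between 34 and 37. Markers of haploid mating type a did not pass the test (5 tested, 5 positive differences, lowest limma adjusted p 0.224). At an unadjusted p under 0.05 there were 3 of them, beside 13.3% of all genes tested. MFA1 averaged -0.21 with DJ28 in Cy3 and 1.42 with it in Cy5. MFA2 and STE6 also turned sign between orientations, while STE2 and BAR1 did not. Markers of type alpha (3 tested, 0 positive) and of meiosis (4 tested, 0 positive) did not pass either. These marker values are ratios, so they do not show which mating type the strains have.

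No ATG gene differed between the strains past the test. Of the 35 members with enough values, 0 had an adjusted p under 0.05 in limma's moderated test, in a table where 0.549% of the 5642 genes tested passed (0.0886% higher and 0.461% lower in DJ28). At an unadjusted p under 0.05 there were 4 members, or 11.4%, beside 13.3% of all genes tested. One of them, ATG33, had its value higher in DJ28 (5.96% of all genes at that level), and ATG1, ATG15 and ATG38 had theirs lower (7.39% of all genes). The median difference of the members was 0.02, with 19 positive and 16 negative values, beside a median of 0.03 and 56.1% positive values over all genes tested. The median size of a difference, sign aside, was 0.10 for members and 0.14 for all genes.

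**Figure D1:**
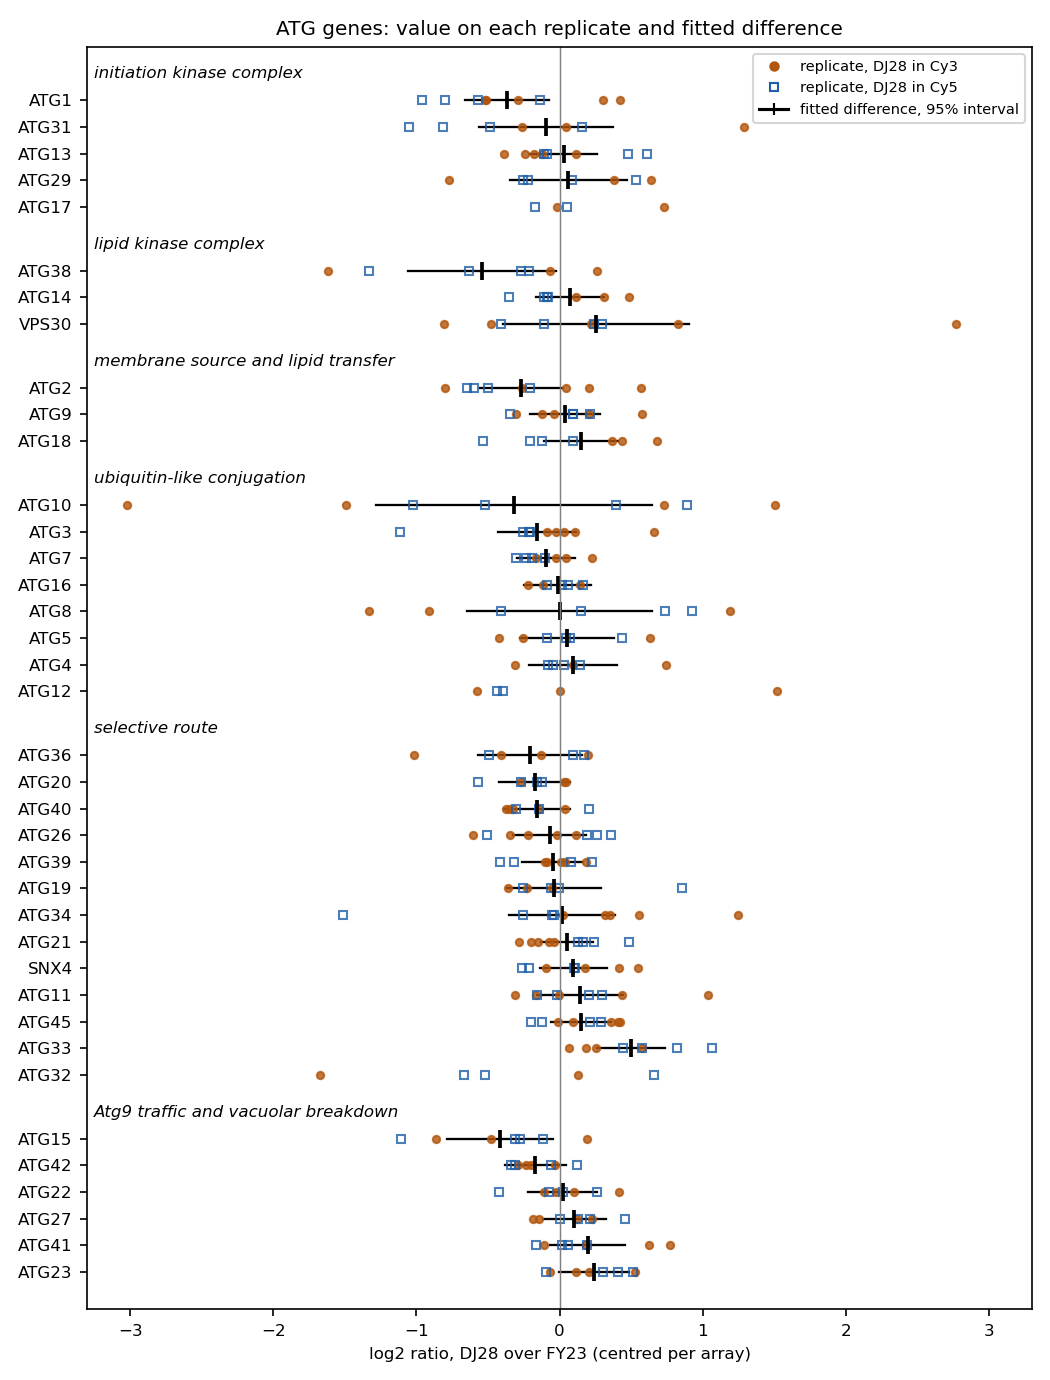
Centred log2 ratio of DJ28 over FY23 on the x axis for each ATG gene, grouped by role, with filled circles for replicates that had DJ28 in Cy3, open squares for those that had it in Cy5 (arrays 6 and 7 as their mean), and a black tick and line for the fitted difference and its 95% interval. ATG33 alone has all its replicates on 1 side of 0, and ATG12, ATG17 and ATG32, below the minimum of 3 replicates per orientation, have no fitted value drawn.

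Measured by array-to-array spread, which may be all technical, the precision was enough to bound most members. The 95% interval of the difference lay inside a 2-fold change in either direction for 33 of 35 members, a share close to the 95.6% of all genes tested, and inside a 1.5-fold change for 28 members, beside 74.4% of all genes. The intervals that reached past 2-fold were those of ATG10 and ATG38. Besides these, ATG1, ATG8, ATG15, ATG33 and VPS30 reached past 1.5-fold. Standard errors of the members ran from 0.08 for ATG21 to 0.43 for ATG10, with a median of 0.12, against 0.13 over all genes.

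**Figure D2:**
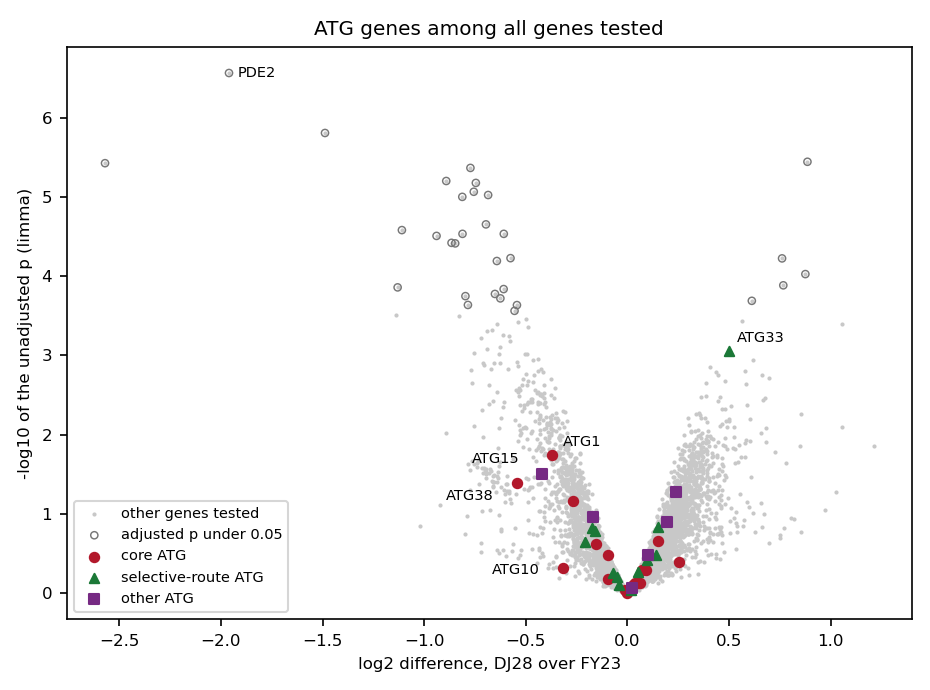
Log2 difference of DJ28 over FY23 on the x axis against -log10 of limma's unadjusted p on the y axis, with grey points for all genes tested, open circles for genes past the adjusted threshold and coloured symbols for ATG genes. The ATG genes lie within the cloud of other genes, with ATG33 the highest of them (limma unadjusted p = 0.000868), and none carries an open circle.

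The initiation complex is built on Atg1, the protein kinase that starts autophagosome formation, and Atg13, its regulatory partner, with Atg17, Atg29 and Atg31 as the scaffold used for bulk autophagy. ATG1 (YGL180W) had values of 0.42, 0.30, -0.29, -0.52 and -0.52 on arrays 1 to 5, where DJ28 was in Cy3. With DJ28 in Cy5 they were -0.80 on the mean of arrays 6 and 7 and -0.14, -0.96 and -0.57 on arrays 8 to 10. Arrays 1 and 2, the sparse ones, were the only replicates on which ATG1 was higher in DJ28, and the remaining 7 of 9 replicates had it lower. The fitted difference was -0.37 with an SE of 0.13 (95% interval -0.66 to -0.08, limma adjusted p = 0.296), a 1.29-fold difference. It was -0.53 without arrays 1 and 2 (adjusted p = 0.195), -0.64 within arrays 4, 5, 9 and 10 (adjusted p = 0.0818) and -0.16 within the remaining arrays (adjusted p = 0.676).

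ATG31 (YDR022C) was 1.29, -0.26 and 0.05 on arrays 3 to 5 and -0.82, -1.05, -0.49 and 0.16 on the mean of arrays 6 and 7 and on arrays 8, 9 and 10. The orientations overlap and lie on both sides of 0, and the difference was -0.10 with an SE of 0.21. ATG13, whose product is a target of both TORC1 and protein kinase A, had a difference of 0.03 with an SE of 0.11. It was lower on 6 of 9 replicates, yet 0.61 higher on the mean of arrays 6 and 7 and 0.48 higher on array 8. ATG29, at 0.06, overlaps the gene SET6 in the R64 annotation, so its spot could carry signal of both transcripts. ATG17 had 4 replicates and fell below the minimum of 3 per orientation, with values of 0.73 and -0.02 on arrays 2 and 3 and 0.05 and -0.17 on the mean of arrays 6 and 7 and on array 8.

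The lipid kinase complex marks the growing membrane with phosphatidylinositol phosphate. Vps30 and Atg14 are among its subunits, and Atg38 is a link between subunits. ATG38 (YLR211C) had the largest difference of the members, at -0.54 with an SE of 0.23 (95% interval -1.06 to -0.03, limma adjusted p = 0.36). Its values were 0.26, -1.62 and -0.07 on arrays 3 to 5 and -1.33, -0.27, -0.63 and -0.21 on the mean of arrays 6 and 7 and on arrays 8, 9 and 10. Array 4 and the mean of arrays 6 and 7 lie apart from the rest, and 6 of 7 replicates were below 0. VPS30 (YPL120W) was 2.77, 0.22, 0.83, -0.48 and -0.81 on arrays 1 to 5 and -0.41, -0.11, 0.24 and 0.30 with DJ28 in Cy5. Its difference was 0.26 with an SE of 0.30. It was 0.42 without array 5 and -0.03 without array 1, which holds the highest value of any member. ATG14 had a difference of 0.07 (SE 0.11).

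Atg9, a membrane protein carried on small vesicles, supplies the first membrane, and Atg2 and Atg18 work together in moving lipid into it. ATG2 (YNL242W) was 0.21, -0.26, -0.80, 0.05 and 0.57 on arrays 1 to 5 and -0.50, -0.21, -0.60 and -0.65 with DJ28 in Cy5. All replicates with DJ28 in Cy5 were below 0, those with DJ28 in Cy3 spread to both sides, and the difference was -0.27 with an SE of 0.13 (limma adjusted p = 0.401), or -0.17 without array 3. ATG18 (YFR021W) was 0.37, 0.43 and 0.68 on arrays 3 to 5 and -0.21, -0.54, -0.12 and 0.09 with DJ28 in Cy5. Its orientations do not overlap, which in the fit appears as a dye effect of -0.34 (unadjusted p = 0.0147) beside a strain difference of 0.15 (SE 0.12, adjusted p = 0.582). ATG9 was 0.04 with an SE of 0.11.

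The conjugation proteins attach the ubiquitin-like proteins Atg8 and Atg12 to their targets. Atg7 is the activating enzyme of both, Atg3 and Atg10 are the conjugating enzymes, Atg4 is the protease that trims and releases Atg8, and Atg12 joined to Atg5 works with Atg16. ATG10 (YLL042C) had the widest spread of all members: 1.502, 0.731, -1.495 and -3.02 on arrays 2 to 5, and -1.02, -0.52, 0.89 and 0.40 on array 7 and arrays 8, 9 and 10. It was higher on 4 replicates and lower on 4, and its difference of -0.32 had an SE of 0.43 (95% interval -1.28 to 0.65). Without array 5 it was 0.09. ATG3 (YNR007C) was -0.09, -0.02, 0.66, 0.03 and 0.11 on arrays 1 to 5 and -0.26, -0.22, -1.12 and -0.20 with DJ28 in Cy5, with a difference of -0.15 (SE 0.12, limma adjusted p = 0.595) and a dye effect of -0.29 (unadjusted p = 0.0365).

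ATG8 (YBL078C), the member most used as a readout of autophagy, falls outside the rule for named genes and was added after its values were seen. It was 1.19, -0.91 and -1.33 on arrays 3 to 5 and 0.73, -0.41, 0.93 and 0.15 on the mean of arrays 6 and 7 and on arrays 8, 9 and 10. Both orientations hold values above and below 0, and they average to a difference of 0.00 with an SE of 0.29. The 95% interval ran from -0.65 to 0.65, so a difference of up to about 1.56-fold in either direction lay within the error. Of the other conjugation genes ATG7 was -0.09 (SE 0.09), ATG16 -0.01, ATG5 0.05 and ATG4 0.09. ATG12 had values on arrays 3, 4, 5, 9 and 10, below the minimum of 3 replicates with DJ28 in Cy5, and they ran from -0.58 to 1.52.

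Over the core machinery as a whole, 9 differences of the 17 tested were positive and 8 negative, and the median was 0.00. The smallest adjusted p among them was 0.296. By replicate, the core median was 0.32, 0.22 and 0.31 on arrays 1, 2 and 3 and below 0 on the other 6 replicates, down to -0.21 on array 8. The values of arrays 1 and 2 rest on 6 and 9 core genes.

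**Figure D3:**
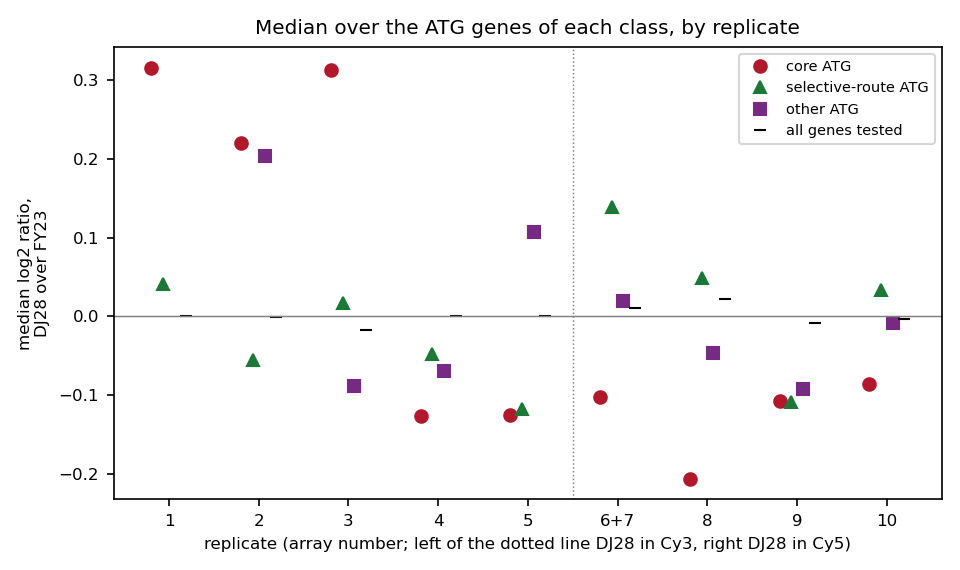
Median centred log2 ratio of DJ28 over FY23 on the y axis over the ATG genes of each class and over all genes tested, for each replicate on the x axis, with DJ28 in Cy3 left of the dotted line and in Cy5 right of it. The core median lies above 0 on arrays 1, 2 and 3 and below 0 on the other 6 replicates, and the selective-route median lies above 0 on 5 of 9.

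Among the selective-route genes, 6 of the 12 tested had positive and 6 negative differences, with a median of -0.01. ATG33 (YLR356W), whose product is a mitochondrial outer membrane protein needed for full mitophagy in stationary phase, stood highest among all members. Its values were 0.26, 0.18, 0.07 and 0.57 on arrays 2 to 5 and 1.07, 0.44, 0.82 and 0.57 on the mean of arrays 6 and 7 and on arrays 8, 9 and 10. All 8 replicates lay above 0, and the orientations overlap. The same sign on every replicate, in either direction, was found for 2.13% of all genes tested and for no other member tested. The difference was 0.50 with an SE of 0.11 (95% interval 0.26 to 0.74), a 1.41-fold difference, with an unadjusted p of 0.000868 and a limma adjusted p of 0.102. It did not pass the test. Counting all 10 arrays apart took it past the threshold (0.53, adjusted p = 0.0287, in a fit where 1.39% of all genes passed), as did array weights (0.47, adjusted p = 0.0361, with 2% of all genes passing). Within arrays 4, 5, 9 and 10 the difference was 0.51 and within the remaining arrays 0.49. The replicate mean was 0.27 for arrays 1 to 5 and 0.73 for the other orientation.

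ATG36 (YJL185C), the peroxisome receptor, had the next largest difference in the class, at -0.21 with an SE of 0.16 (limma adjusted p = 0.584). It was -0.13, 0.20, -0.41 and -1.02 on arrays 2 to 5 and 0.17, -0.50 and 0.09 on the mean of arrays 6 and 7 and on arrays 8 and 10, so it overlapped 0 in both orientations. Without array 5 it was -0.09. ATG32, the mitophagy receptor, had too few replicates of arrays 1 to 5 for the main test. It had values of 0.13 and -1.68 on arrays 3 and 4 and -0.67, -0.52 and 0.66 on the mean of arrays 6 and 7 and on arrays 8 and 10. With 2 replicates per orientation accepted, the differences were -0.05 for ATG12 (limma adjusted p = 0.956), 0.15 for ATG17 (0.763) and -0.47 for ATG32 (0.546). The receptors for endoplasmic reticulum and nucleus, ATG40 and ATG39, had differences of -0.16 and -0.05, and ATG11, the scaffold that binds cargo receptors, had 0.14.

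ATG19 and ATG34 encode related cargo receptors and are neighbours on their chromosome, and ATG21 encodes a relative of Atg18 used in the Cvt route. Spots of related genes may take up each other's transcripts. ATG19 had a difference of -0.04 (SE 0.15), with 0.85 on the mean of arrays 6 and 7 and values at or below 0 on the other 6 replicates. ATG34 had a difference of 0.02 (SE 0.17) and was above 0 on all 5 replicates of arrays 1 to 5 and below 0 on all 4 replicates of arrays 6 to 10. ATG21 had the reverse arrangement, below 0 on the 5 and above 0 on the 4, with a difference of 0.05 (SE 0.08). Their dye effects were -0.48 (unadjusted p = 0.0158) and 0.20 (unadjusted p = 0.0335). With ATG3 and ATG18 this makes 4 members with a dye effect at that level, beside 23.1% of all genes tested, and 0 members had one past the adjusted threshold, which 3.05% of all genes did. The sorting nexin genes ATG20 and SNX4 were at -0.17 and 0.10, ATG26, whose product is a sterol glucosyltransferase, at -0.07 and ATG45 at 0.15.

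The members outside both classes act before and after the autophagosome. Atg15 is the lipase that dissolves autophagic bodies in the vacuole, and Atg42 is a vacuolar carboxypeptidase. ATG15 (YCR068W) was 0.19, -0.86 and -0.48 on arrays 3 to 5 and -1.11, -0.28, -0.31 and -0.12 with DJ28 in Cy5. It lay below 0 on 6 of 7 replicates, with a difference of -0.42 and an SE of 0.17 (95% interval -0.79 to -0.05, limma adjusted p = 0.338). ATG42 was lower on 7 of 8 replicates, at -0.17 (SE 0.10, adjusted p = 0.459), and ATG22, which encodes a vacuolar amino acid exporter, was at 0.02.

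ATG23 (YLR431C), which encodes a protein of Atg9 traffic, was 0.20, -0.07, 0.53 and 0.11 on arrays 2 to 5 and 0.52, -0.10, 0.41 and 0.30 with DJ28 in Cy5. It lay above 0 on 6 of 8 replicates, with a difference of 0.24 and an SE of 0.11 (limma adjusted p = 0.376). ATG27 and ATG41, also of Atg9 traffic, were each above 0 on 6 of 8 replicates, at 0.10 and 0.20. Of these 6 genes 4 had positive and 2 negative differences, with a median of 0.06.

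Core and selective-route genes were not separated by these data. Their median differences, 0.00 and -0.01, lay 0.01 apart. Over the 9 replicates the core median had an SD of 0.21 and the selective-route median one of 0.08. Within replicates the core median was higher on arrays 1, 2 and 3 (0.32, 0.22 and 0.31 against 0.04, -0.055 and 0.02). It was lower on the mean of arrays 6 and 7 (-0.10 against 0.14) and on array 8 (-0.21 against 0.05). It was also lower on arrays 4 and 10, while arrays 5 and 9 had nearly equal medians. The spread of this gap was not computed. Both classes held 0 genes past the test.

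A strain-by-set term, which tests whether the difference depends on the array set, passed for 0 members (limma) and for 1 of all genes tested. Within arrays 4, 5, 9 and 10 the members had a median of -0.13, with 23 of 34 differences negative, beside a median of 0.00 and 49.8% negative values over all genes tested there. Within the remaining arrays the median was 0.09, with 8 of 24 negative, beside 0.08 and 39.2% over all genes. The core median was -0.16 in the first set and 0.14 in the other, from 18 and 9 genes. In neither set did a member pass the adjusted threshold. At an unadjusted p under 0.05 there were 9 of 34 members in the first set, where 17.9% of all genes tested were at that level, and 1 of 24 in the other, where 11.6% were.

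Of the 21 members tested in both sets, 6 were lower in both, 6 were higher in both and 9 had opposite signs. Each of these 9 was negative within arrays 4, 5, 9 and 10 and positive in the remaining arrays. Opposite signs, in either direction, were found for 37.8% of all genes tested in both sets. That share was not split by direction, and genes lower or higher in both sets were not counted over all genes. All genes tested were also less often negative in the remaining arrays, at 39.2% against 49.8% within arrays 4, 5, 9 and 10. The members lower in both sets included ATG1, ATG2, ATG3, ATG7 and ATG42, and those higher in both included ATG33, ATG23 and ATG45. 

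**Figure D4:**
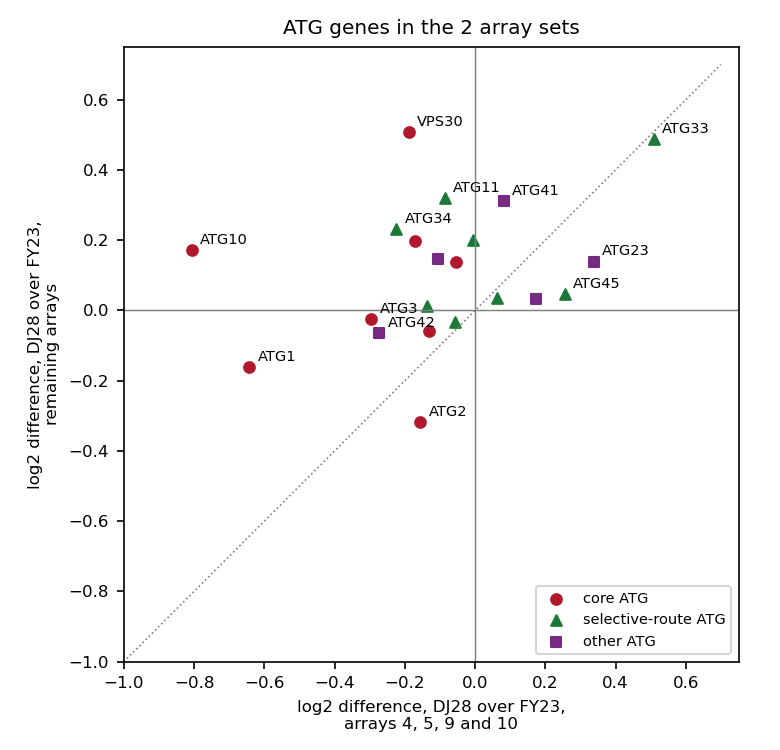
Log2 difference of DJ28 over FY23 within arrays 4, 5, 9 and 10 on the x axis against that within the remaining arrays on the y axis, for the 21 ATG genes tested in both, with the dotted line marking equal values. ATG33 lies close to the line at 0.51 and 0.49, and ATG1 is negative in both. The 9 genes of opposite sign all lie at the upper left, a direction that was not counted over all genes.

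Of the other pathway lists, 1 held a gene past the test. Among 19 autophagy genes that carry no ATG name, such as VPS34 of the lipid kinase complex and the vacuolar fusion factors, 0 of 18 tested passed and the median was 0.02. Here the largest differences were 1.21 for VAM3, a vacuolar fusion protein of the SNARE family (SE 0.41, limma adjusted p = 0.28, higher on 7 of 8 replicates), and 0.32 for YKT6, another SNARE (adjusted p = 0.455). VAM3 reached 5.06 on the sparse array 2, and its difference was 0.72 without that array (adjusted p = 0.227). YKT6 was higher on 5 of 8 replicates, and its difference was 0.16 without array 4. With DJ28 in Cy3 and then in Cy5, the replicate means were 2.09 and 0.33 for VAM3 and -0.155 and 0.80 for YKT6. Among 18 genes of upstream kinases and their partners, 0 of 14 tested passed, with a median of 0.00. The largest difference was -0.43 for SCH9, a growth kinase that acts beside protein kinase A (limma adjusted p = 0.275). It was followed by 0.30 for PHO85, a cyclin-dependent kinase (limma adjusted p = 0.279). The orientation means, in the same order, were -0.09 and -0.77 for SCH9 and 0.35 and 0.25 for PHO85. Among 15 transcription regulators known to act on ATG genes, 0 of 14 tested passed, with a median of 0.02. MSN2, which encodes an activator of stress genes held down by protein kinase A, was at -0.58 (SE 0.27, adjusted p = 0.376, lower on 5 of 7 replicates), and SPT10 at 0.35 (adjusted p = 0.497). The orientation means of MSN2 had opposite signs, at -1.57 and 0.41, and array 5 held its lowest value, -2.50. SPT10 reached 2.41 on array 2 and was at 0.10 without it, and its orientation means also had opposite signs, at 0.89 and -0.19.

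This was the list of Cvt cargo and vacuolar hydrolases, where 1 of 7 tested genes fell, beside the 0.461% of all genes tested that were called lower. The gene is PRB1, which encodes the vacuolar protease B that is needed to break down autophagic bodies, at -0.78 with an SE of 0.14 (limma adjusted p = 0.0435, lower on 8 of 8 replicates), and -0.63 and -0.94 within the array sets. Its call was lost without array 2 (limma adjusted p = 0.136), array 3 (0.073), array 9 (0.131) or array 10 (0.141). Leaving out arrays 1 and 2 together (0.135) or arrays 6 and 7 together (0.0833) also lost it. So did no centring (0.984), 2 replicate values per orientation accepted (0.0537) and either array set or orientation alone. The difference was between -0.55 and -1.02 in all of these. AMS1, which encodes the Cvt cargo alpha-mannosidase, was at -0.63 (SE 0.14, limma adjusted p = 0.0972, lower on 7 of 9 replicates). It passed without array 8 (adjusted p = 0.025), with all 10 arrays counted apart (0.0287) and with array weights (0.0206). It also passed among genes with values on all 10 arrays (0.0255), and at no other setting. The replicate mean of AMS1 was -0.12 for arrays 1 to 5 and -1.13 for the other orientation, so most of its difference came from the latter. APE1, the main Cvt cargo, was at -0.05. The median of the list was -0.20, with 1 of 7 differences positive, beside 56.1% over all genes tested. At an unadjusted p under 0.05 (limma) there were 3 of 7, PRB1, AMS1 and PEP4, beside 13.3% of all genes tested. PEP4 was at -0.33 (limma adjusted p = 0.271) and lower on 8 of 8 replicates.

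**Figure D5:**
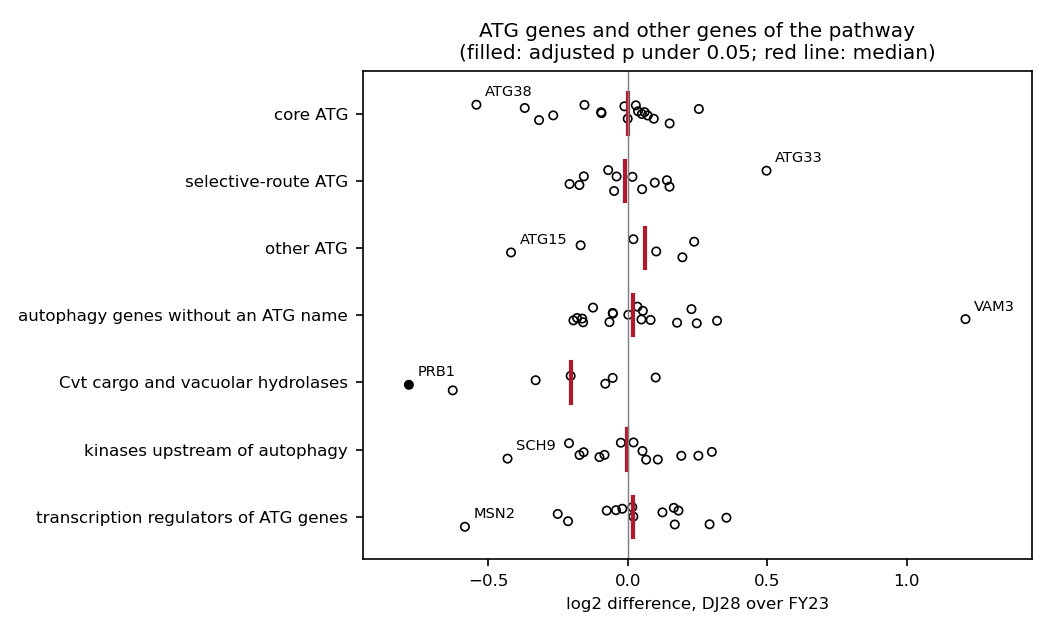
Log2 difference of DJ28 over FY23 on the x axis for each gene of the ATG classes and of the other pathway lists, with 1 circle per gene, a red line at the median of each list, filled circles for an adjusted p under 0.05 and the gene farthest from 0 named. PRB1 is the only filled circle, and VAM3 lies farthest out at 1.21 without passing the test.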

How the data were processed

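The deposited table of the authors holds 1 log2 ratio of the 2 dyes per row and array. That scale was read from the values, whose upper limit is 16.61. How background, normalization and empty cells were treated before deposit is not stated in the labels. Between 2230 and 6048 values were present per array, and the number of arrays limits the precision. Rows were named through the platform annotation and R64 (5663 named, 614 unnamed), and no coordinates are printed because the array's build is not named. The 13 cells at the upper limit, none of a member, were set to missing. Arrays were centred on their medians and genes with 3 or more replicate values per orientation were tested. The fit used limma 3.58.1 in R 4.3.3 (lmFit, eBayes) with dye and strain terms and Benjamini-Hochberg adjustment over all 5642 genes. It was checked on simulated data with independent noise on each replicate, which cannot check for error shared between arrays. Members, role classes and lists were chosen with earlier results of these data known. Values on every replicate are given for members past the test or with an unadjusted p under 0.05, and for the 2 largest differences in each role group. The arrays used, the centring, weights, dye terms, limit cells and value filter were varied; the direction was not refitted, since turning it only turns every sign. The same settings were run for named genes of the other lists, an addition chosen after seeing the data.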

Additional observations from a re-analysis of the deposited data

Results flagged for a closer look

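In 4 of 64 groups of replicates of 1 dye orientation, 1 array lay far from the others by Dixon's criterion, which flags about 1 group in 20 by chance. ATG3 was 0.663 on array 3, where the nearest of the other 4 replicates with DJ28 in Cy3 was 0.111, and -1.118 on array 9, where the nearest with DJ28 in Cy5 was -0.257. ATG34 was -1.514 on array 9, with the nearest value at -0.256. ATG14 was -0.353 on array 8, with the nearest at -0.11.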

How the results depend on the processing

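Over 24 other settings of the fit, 22 gave 0 ATG genes past limma's test, and all 10 arrays counted apart and array weights gave 1 each, ATG33. Leaving out each array in turn gave 0 throughout and moved ATG33 between 0.447 and 0.545 (adjusted p from 0.0551 to 0.348), always higher in DJ28. The count of all genes past the test, 31, ran from 10 to 79 over these single omissions (19, 79, 12 and 10 on leaving out arrays 2, 8, 9 and 10). It was 79 with all arrays counted apart, 113 with array weights, 4 with no centring, 0 with the arrays outside 4, 5, 9 and 10, 0 with DJ28 in Cy3 alone, 2 with DJ28 in Cy5 alone, 6 without arrays 1 and 2 and 17 without arrays 6 and 7. The ATG median of 0.017 became -0.133 within arrays 4, 5, 9 and 10, and the selective-route median of -0.011 became 0.0757 with no centring. The causes were not tested. At other settings both medians and the core median moved by less than their SD between replicates. Members by current ATG symbol alone gave the same count of 0. Each array holds both strains, so every ratio is a within-array comparison. Arrays of opposite orientation could not be paired with one another, because each array number belongs to a single orientation. Signal over background is unknown, since the table holds ratios only.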
